A study of Homo sapiens with 4 samples.

Results

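The genes described here are the NFAT transcription factors NFATC1, NFATC2, NFATC3, NFATC4 and NFAT5, the calcineurin subunits PPP3CA, PPP3CB and PPP3R1, and the calcineurin regulators RCAN1 and RCAN2. They are 10 genes of 60721 in the count table, found by gene symbol, and all 10 were among the 16137 genes that passed the filter on low counts. The set was selected on the siTLN1 against SCR values of these same libraries, because NFATC2 was higher after TLN1 depletion, so the difference between the groups is a description of these genes and not a test of them. The cells were Hs578T, an established human line from a breast carcinoma, co-transfected with GFP and with 1.6 µM of either a non-targeting RNA (SCR, 2 libraries) or an siRNA against TLN1 (siTLN1, 2 libraries), and polyadenylated RNA was collected 48 h later. Both groups thus carry GFP and a transfected RNA. TLN1 encodes talin-1, which links integrins to actin. The labels name 2 biological replicates per group but not separate cultures or passages, so the spread given is that between these libraries. They name no second siRNA, so an effect of the RNA used and of the loss of talin-1 cannot be told apart.

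NFATC1 to NFATC4 are held in the cytoplasm by phosphorylation. When calcium rises, calmodulin activates calcineurin, a phosphatase made of a catalytic and a regulatory subunit, which dephosphorylates these factors and lets them enter the nucleus. NFAT5 shares the DNA-binding domain but answers to osmotic stress and does not depend on calcineurin. RCAN proteins bind calcineurin and restrain it, and a short form of RCAN1 is transcribed from an internal promoter that NFAT itself activates. In breast carcinoma cells NFATC2 has been linked to migration and invasion.

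The stretch of DNA before the start of NFATC2 is shown first, because NFATC2 is the member that differed between the groups. The stretch before an internal start of RCAN1 is shown because it is the known place of NFAT feedback. RefSeq promoter windows were found for 7 of the 10 members (18 windows, GRCh38.p14). Each was searched over the 250 bases before the start for the short NFAT core GGAAA, its longer form GGAAAA and the AP-1 word TGACTCA, on both strands. Capitals mark GGAAA or its reverse complement TTTCC, and both sequences read 5′ to 3′ on the minus strand.
NFATC2, chr20:51562840-51563089: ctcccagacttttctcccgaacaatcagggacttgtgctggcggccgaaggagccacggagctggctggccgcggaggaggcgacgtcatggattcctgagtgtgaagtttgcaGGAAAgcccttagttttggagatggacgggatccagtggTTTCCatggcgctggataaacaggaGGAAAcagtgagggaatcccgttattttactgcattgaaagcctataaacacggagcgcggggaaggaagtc
RCAN1 internal start, chr21:34526964-34527072: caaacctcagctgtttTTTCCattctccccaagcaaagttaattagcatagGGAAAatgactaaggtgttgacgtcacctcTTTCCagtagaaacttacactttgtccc

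The NFATC2 window overlapped no exon in GENCODE 29 and held 3 copies of GGAAA, 0 of the longer core GGAAAA and 0 of TGACTCA. At least 3 copies occurred in 7.12% of 35116 RefSeq windows of this length. The second RefSeq start of NFATC2 (chr20:51542720-51542969) had 0 copies of these words. Over its whole 250 bases the RCAN1 window printed in part above held 4 copies of GGAAA and 1 copy of TGACTCA. Of these GGAAA copies, 3 were part of GGAAAA. The other RefSeq windows of RCAN1, which include further internal starts, had 0 copies of these words. At least 3 copies of GGAAAA occurred in 0.376% of the windows and at least 1 TGACTCA in 4.2%. These shares are per window and do not allow for a gene having several windows. The printed RCAN1 stretch is limited to the 109 bases outside annotated exons and holds 3 of the copies of GGAAA. These matches describe letters, not bound sites.

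The libraries held 31854322 to 46353297 counts, named a and b after a number that recurs in the column names of each group. TLN1 fell from 871 ± 3.95 (CPM, counts scaled to library size; SD, n = 2) in SCR to 48.3 ± 5.02 CPM (SD, n = 2) in siTLN1 (edgeR adjusted p 3.89e-13). The labels call the cells epithelial, yet 4 of 7 epithelial markers, EPCAM and CDH1 among them, stayed under 1 CPM in each library. KRT18 (104 to 131 CPM) and KRT8 (15.1 to 20.7 CPM) were expressed, and the 7 summed to 123 to 153 CPM. The 6 mesenchymal markers summed to 12758 and 12447 CPM in SCR and to 10774 and 10504 CPM in siTLN1. Of them VIM lay between 3811 and 3968 CPM, while CDH2 (log2 fold change -0.89, edgeR adjusted p 2.45e-05) and SPARC (-0.48, adjusted p 0.0161) fell. The part of these markers in the results was not tested. NFATC2 is best known from lymphocytes, so their markers were checked. The T cell markers CD3E, CD3D and CD2 had 0 counts in all 4 libraries, each of the 8 lymphocyte markers checked was below 1 CPM in each library, and their summed level was 0.66 to 0.944 CPM in SCR and 0.553 to 0.632 CPM in siTLN1. In bulk RNA a change in the share of cells that hold a transcript and a change per cell cannot be told apart.

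NFATC2 (ENSG00000101096.20; GRCh38, chromosome 20, 51386957 to 51562831, minus strand) stood at 10.7 and 8.99 CPM in libraries a and b of SCR, and at 20.5 and 18.7 CPM in those of siTLN1. Both siTLN1 libraries lay above both SCR libraries. The raw counts behind these levels were 339 and 313 in SCR and 747 and 879 in siTLN1. The group means were 9.83 ± 1.19 CPM (SD, n = 2) and 19.6 ± 1.28 CPM (SD, n = 2), a 2.00-fold difference (log2 fold change 0.997, standard error 0.12). With 1 library left out at a time the log2 fold change was lowest when SCR library b was dropped (0.88) and highest when SCR library a was dropped (1.12). In the table of log2 CPM that the authors deposited, NFATC2 was at 3.42 and 3.18 in SCR replicates 1 and 2 and at 4.36 and 4.23 in siTLN1 replicates 1 and 2. It ranked at place 148 from the top among the log2 fold changes of the tested genes, and none of its exon bases is shared with another gene.

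**Figure D1:**
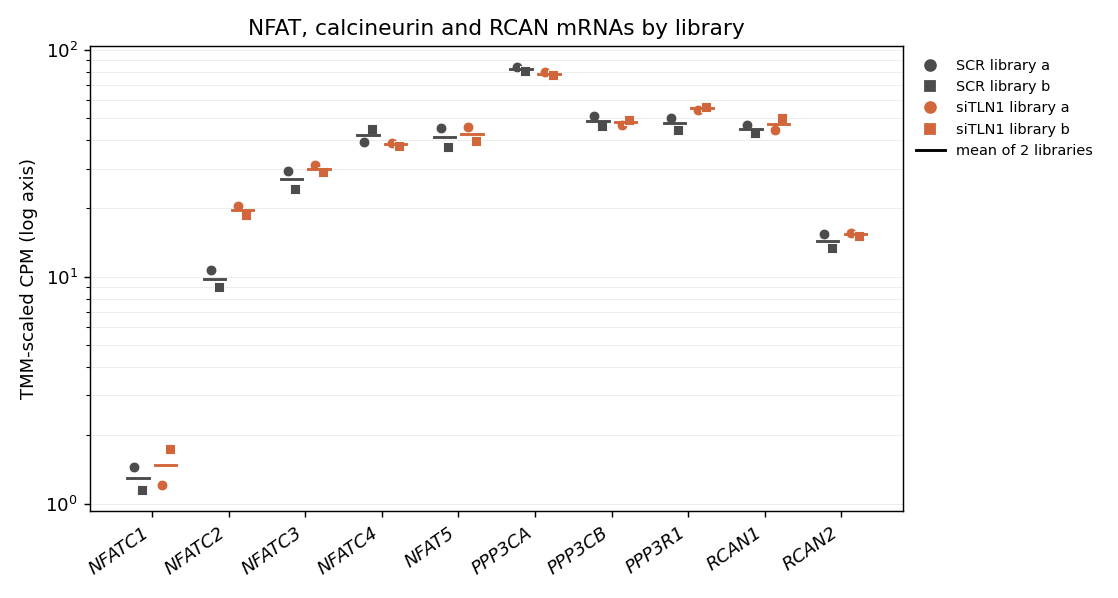
TMM-scaled CPM of each gene in the 4 libraries, on a log axis, with circles for libraries a, squares for libraries b and lines for group means. NFATC2 is near 10 CPM in SCR and near 20 CPM in siTLN1, and for the other 9 genes the group means lie close together.

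Across the table, 6.07% of the tested genes passed a threshold of 0.05 on the Benjamini-Hochberg adjusted p of edgeR's quasi-likelihood F test (2.3% higher and 3.77% lower in siTLN1). Of the 10 genes here, 1 passed, and that was NFATC2, the gene that led to the choice of the set, so nothing is read from this count. The other 9 had log2 fold changes from -0.13 for NFATC4 to 0.23 for PPP3R1, with a median of 0.078 against 0.0033 over all tested genes. The libraries of the groups did not overlap for 4 of the 10 genes (NFATC2 and PPP3R1 higher, NFATC4 and PPP3CA lower in siTLN1). That count has a background of 48.4% of all tested genes.

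The other calcium-regulated factors had smaller differences than NFATC2. NFATC4 (ENSG00000100968.14; chromosome 14, 24365673 to 24379604, plus strand) had 39.4 and 44.8 CPM in SCR and 39 and 37.8 CPM in siTLN1. Its siTLN1 libraries were the lower ones, but the gap between the groups was smaller than the distance between the SCR libraries. Its log2 fold change was -0.13 with a 95% interval from -0.35 to 0.081. NFATC3 (ENSG00000072736.19; chromosome 16, 68084751 to 68229259, plus strand) had 29.4 and 24.3 CPM in SCR and 31 and 28.9 CPM in siTLN1. The groups overlapped, and the log2 fold change of 0.16 had a 95% interval from -0.076 to 0.39. Of the exon bases of NFATC3, 33% lie in exons of genes on the opposite strand and 19.0% in exons of other genes on its own strand, so its counts are uncertain. These intervals are per gene and take no account of the number of genes tested.

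NFATC1 (ENSG00000131196.17; chromosome 18, 79395856 to 79529325, plus strand) was the least abundant member. It had 46 and 40 raw counts in SCR and 44 and 82 in siTLN1, or 1.45, 1.15, 1.21 and 1.74 CPM in that order. The groups overlapped, and the 95% interval of its log2 fold change, -0.35 to 0.78, is the widest of the 10. With so few counts, the values do not settle whether NFATC1 rose, fell or stayed the same.

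NFAT5 (ENSG00000102908.22; chromosome 16, 69565094 to 69704666, plus strand), the tonicity-responsive factor, had 45.2 and 37.2 CPM in SCR and 45.8 and 39.6 CPM in siTLN1. Within each group library a was the higher one, and this gap exceeded the gap between the groups. The log2 fold change was 0.052 with a 95% interval from -0.19 to 0.29, and 9.68% of the exon bases of NFAT5 are shared with another gene on its strand.

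The siTLN1 group means of the catalytic subunits of calcineurin were within 10% of their SCR means. The 95% intervals of their log2 fold changes allow larger differences. PPP3CA (ENSG00000138814.17; chromosome 4, 101023409 to 101348278, minus strand) had 84 and 80.5 CPM in SCR and 79.7 and 77.4 CPM in siTLN1. The groups did not overlap, but the siTLN1 mean was 95.5% of the SCR mean, with a 95% interval of the log2 fold change from -0.26 to 0.13. PPP3CB (ENSG00000107758.15; chromosome 10, 73436428 to 73496024, minus strand) had 51.3 and 46.2 CPM in SCR and 46.7 and 49.1 CPM in siTLN1, fully overlapping values with an interval from -0.23 to 0.18. PPP3CC, the third catalytic gene and not one of the 10, had 48.2 and 45.7 CPM in SCR and 44.5 and 52.9 CPM in siTLN1, with 10.3% of its exon bases shared with the opposite strand.

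PPP3R1 (ENSG00000221823.11; chromosome 2, 68178857 to 68256237, minus strand) encodes calcineurin B, the regulatory subunit that binds calcium. It had 50.3 and 44.5 CPM in SCR and 54.6 and 56.2 CPM in siTLN1. Both siTLN1 libraries were above both SCR libraries, with a log2 fold change of 0.23 and a 95% interval from 0.016 to 0.43, but the gene was not past the threshold over the whole table. Exons of other genes cover 20.8% of its exon bases on the opposite strand and 13.7% on its own, which makes its counts uncertain. PPP3R2, the testis form of this subunit, had 2 counts in the 4 libraries together.

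RCAN1 (ENSG00000159200.18; chromosome 21, 34513142 to 34615113, minus strand), the calcineurin regulator whose internal window is printed above, had 46.7 and 42.8 CPM in SCR and 44.2 and 50.2 CPM in siTLN1. The groups overlapped, and the log2 fold change of 0.078 had a 95% interval from -0.14 to 0.29. Counts per gene add the long and the short RCAN1 transcripts, so a shift between them was not analysed here. RCAN2 (ENSG00000172348.14; chromosome 6, 46220736 to 46491972, minus strand) had 15.4 and 13.4 CPM in SCR and 15.5 and 15.2 CPM in siTLN1, with an interval from -0.16 to 0.34. RCAN3, the third gene of this family and not one of the 10, had 25.4 and 19.4 CPM in SCR and 27.2 and 23.2 CPM in siTLN1, again with overlap.

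**Figure D2:**
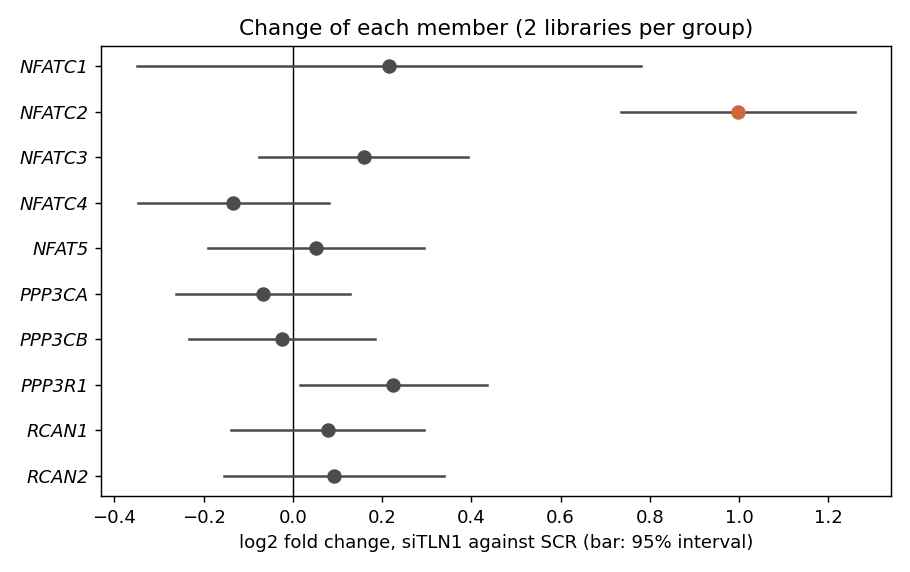
log2 fold change of each gene in siTLN1 against SCR, with bars for the 95% interval of each gene. NFATC2 lies near 1, and the values of the other 9 lie between -0.13 and 0.23.

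The levels of different genes were compared per kilobase of exon. In SCR the order was PPP3CA (15.8 CPM per kilobase), PPP3R1 (14.1), PPP3CB (9.57), RCAN1 (6.43), NFATC4 (4.99), RCAN2 (3.89), NFATC3 (3.05), NFAT5 (2.51), NFATC2 (1.19) and NFATC1 (0.143). The calcineurin subunits were thus above every NFAT factor, and the libraries of neighbours did not overlap at any of the 9 steps, although 2 libraries give little room for overlap. Among all tested genes PPP3CA stood at the 83rd percentile of this measure in SCR, NFATC4 at the 59th, NFATC2 at the 34th and NFATC1 at the 8th. In siTLN1, NFATC2 reached 2.37 CPM per kilobase and its libraries overlapped those of NFAT5 (2.60). PPP3R1 (16.5) stood above PPP3CA (15.1) there, with no overlap. The exon length is that of all annotated exons of a gene joined, so a gene with many unused exons appears lower on this scale. The levels of NFATC3, PPP3R1 and NFAT5 also rest on exons shared with other genes, as given above, so their places in this order are uncertain. A lack of overlap between libraries does not settle the order at those steps.

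**Figure D3:**
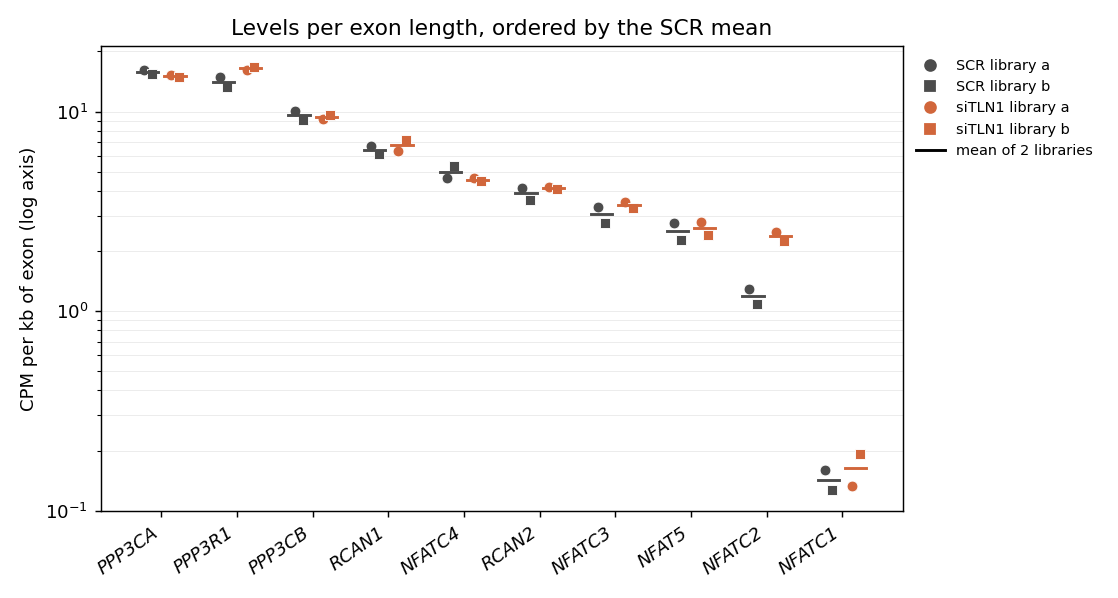
CPM per kilobase of exon in the 4 libraries, on a log axis, ordered by the SCR mean, with lines for group means. Calcineurin subunits are at the left with 9.57 to 15.8 CPM per kilobase in SCR, and NFATC2 moves from 1.19 in SCR to 2.37 in siTLN1, the level of NFAT5.

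The make-up of the calcium-regulated NFAT pool followed from these levels. NFATC2 supplied 13.6% (SCR a), 11.7% (SCR b), 23.0% (siTLN1 a) and 22.1% (siTLN1 b) of the summed NFATC1 to NFATC4 level per kilobase. NFATC4 supplied 53.3% ± 5.52 (SD, n = 2) in SCR and 43.4% ± 0.628 (SD, n = 2) in siTLN1. On this scale it was the largest component in each library. The share of NFATC3 was 32.5% in both group means. The summed level was 9.44 and 9.29 CPM per kilobase in SCR and 10.8 and 10.2 in siTLN1. Shares of 1 pool depend on each other, and these rest on the same contrast that chose the set. Among the catalytic subunits the shares differed less. PPP3CA gave 38.0% ± 0.533 (SD, n = 2) in SCR and 36.6% ± 2.6 (SD, n = 2) in siTLN1, and PPP3CC gave 39.0% and 40.6%.

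**Figure D4:**
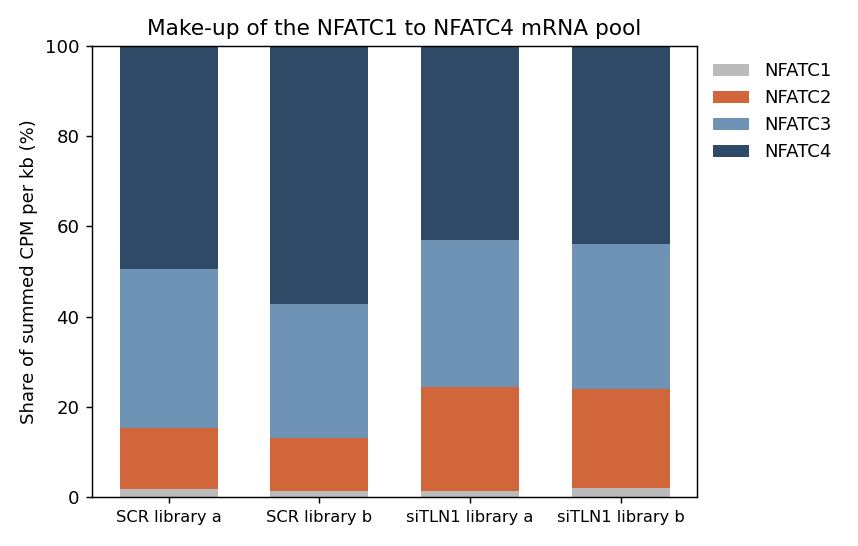
Stacked share of NFATC1, NFATC2, NFATC3 and NFATC4 in their summed CPM per kilobase, in percent, for each library. The NFATC2 segment is 11.7% to 13.6% in SCR and 22.1% to 23.0% in siTLN1. All segments depend on the level of NFATC3, which is uncertain because its exons overlap those of other genes.

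The rest of the pathway was followed through 6 lists holding 96 other genes, of which 83 were tested. Of these, 11 (13.3%) passed the same test, 4 higher and 7 lower in siTLN1, beside 6.07% of all tested genes, and their median log2 fold change was -0.027. Without siTLN1 library a the number was 3, of which 2 (CXCL8 and STIM2) were among the 11. With each of the other libraries left out, some of the 11 (AKR1B1 and ATP2A3 each time) also lost their call, and other listed genes gained one.

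Among genes that dock on or relate to calcineurin, 3 of 9 tested passed, 1 higher and 2 lower. HOMER3, a scaffold protein that can compete with calcineurin for NFAT, had 64 and 71.3 CPM in SCR and 44 and 50.6 CPM in siTLN1 (log2 fold change -0.52, standard error 0.10, adjusted p 0.00627). Exons of other genes cover 12.3% of its exon bases on its own strand and 10.9% on the opposite one. CHP1, a calcineurin B homolog that can inhibit the enzyme, had 67 and 60.9 CPM in SCR and 43.3 and 48.2 CPM in siTLN1 (-0.48, adjusted p 0.00802). AKAP5, an anchoring protein that holds calcineurin at membranes, rose from 1.38 and 1.26 CPM to 2.47 and 2.36 CPM (0.87, adjusted p 0.0282), at only 44 to 111 raw counts per library. DESeq2 gave AKAP5 an adjusted p of 0.113. The immunophilins FKBP1A and PPIA, through which FK506 and cyclosporin act on calcineurin, had log2 fold changes of -0.13 and 0.046 and did not pass.

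Of the kinases that rephosphorylate NFAT and the proteins that carry it across the nuclear envelope, 1 of 14 tested passed. MAPK14, the p38 alpha kinase, fell from 94.6 and 87 CPM in SCR to 63.2 and 67.8 CPM in siTLN1 (log2 fold change -0.47, adjusted p 0.00686). The export kinases GSK3B and DYRK1A were at -0.18 and 0.18 and the exportin XPO1 at 0.24, none past the threshold. The noncoding repressor NRON had 0 counts in each library, which allows up to 0.0647 to 0.0942 CPM.

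In the list of calcium release, calcium entry and calmodulin genes, 3 of 23 tested passed, 2 higher and 1 lower. STIM2, a sensor of calcium in the endoplasmic reticulum, rose from 47.8 and 44.8 CPM in SCR to 70.8 and 67 CPM in siTLN1 (log2 fold change 0.57, standard error 0.096, adjusted p 0.00165). Its paralog STIM1 had 76 and 69.1 CPM in SCR and 73 and 63.9 CPM in siTLN1, and the channel gene ORAI1 was at -0.12, neither past the threshold. ATP2A3, a calcium pump of the endoplasmic reticulum, rose from 9.34 and 9.48 CPM to 13 and 12.7 CPM (0.45, adjusted p 0.0359), and PLCB3, a phospholipase that starts calcium release, fell from 94.4 and 102 CPM to 78.2 and 72.9 CPM (-0.38, adjusted p 0.0253). With no filter on low counts these adjusted p values were 0.055 and 0.0593, and ATP2A3 also missed the threshold with DESeq2 (0.0696). ATP2A3 lost its call in each of the 4 fits that left out 1 library, with adjusted p values from 0.0791 to 0.235, and PLCB3 lost its call in 3 of them.

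Of 11 tested genes among MEF2 factors and other calcineurin substrates, 0 passed with all 4 libraries in edgeR and 0 in DESeq2. Of them 2 (DNM1L and MEF2A) had an unadjusted p under 0.05 in edgeR, beside 3196 of all 16137 tested genes. Nothing is read from this count. MEF2A (log2 fold change 0.29 with all 4 libraries) was called without SCR library a. The smallest edgeR adjusted p of the list with all 4 libraries was that of DNM1L, a mitochondrial fission protein. It had 108 and 98.7 CPM in SCR and 84.5 and 82.9 CPM in siTLN1 (log2 fold change -0.31, adjusted p 0.0654).

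Of 17 tested genes reported elsewhere as NFAT targets, 2 passed, both lower, while other settings also called listed targets that were higher. CXCL8, which encodes interleukin 8, had 88.6 and 83.7 CPM in SCR and 32.5 and 41.9 CPM in siTLN1 (log2 fold change -1.21, standard error 0.12, adjusted p 1.88e-05). IL6, a cytokine gene, had 53.6 and 62.8 CPM in SCR and 31.9 and 42.6 CPM in siTLN1 (-0.64, adjusted p 0.0128), with 20.7% of its exon bases shared with the opposite strand. Both genes are also known targets of NF-kB and AP-1. IL11, a cytokine gene, had 26 and 33.8 CPM in SCR and 36.4 and 47.2 CPM in siTLN1 (0.48, adjusted p 0.0721) and was called with DESeq2, with total counts and without SCR library b or siTLN1 library a. ADAMTS1, a secreted protease gene, had 396 and 371 CPM in SCR and 542 and 431 CPM in siTLN1 (0.34, adjusted p 0.0852) and was called with total counts and without siTLN1 library b. PTGS2, GPC6, VEGFA and ENPP2 had log2 fold changes of -0.14, 0.081, 0.12 and -0.25 and did not pass. FASLG had 0 counts and TNF 7 to 13 counts per library, too few to enter the test.

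Among osmotic target genes of NFAT5, 2 of 9 tested passed, in opposite directions. SLC6A6, the taurine transporter, rose from 155 and 130 CPM to 234 and 197 CPM (log2 fold change 0.59, adjusted p 0.0046), and AKR1B1, aldose reductase, fell from 229 and 233 CPM to 175 and 188 CPM (-0.35, adjusted p 0.0327). With no filter on low counts the adjusted p of AKR1B1 was 0.0757. SLC5A3, the inositol transporter, was at 0.26 and did not pass with all 4 libraries, nor did S100A4, another gene of this list (-0.22). Both SLC5A3 and S100A4 were called when either SCR library a or siTLN1 library b was dropped. Without siTLN1 library a the adjusted p values were 0.151 for HOMER3, 0.167 for CHP1, 0.131 for MAPK14, 0.131 for IL6 and 0.0735 for SLC6A6, while CXCL8 and STIM2 stayed past the threshold (0.000134 and 0.0354). AKAP5 lost its call in 3 of the 4 fits that left out a library, and AKR1B1 in all 4.

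**Figure D5:**
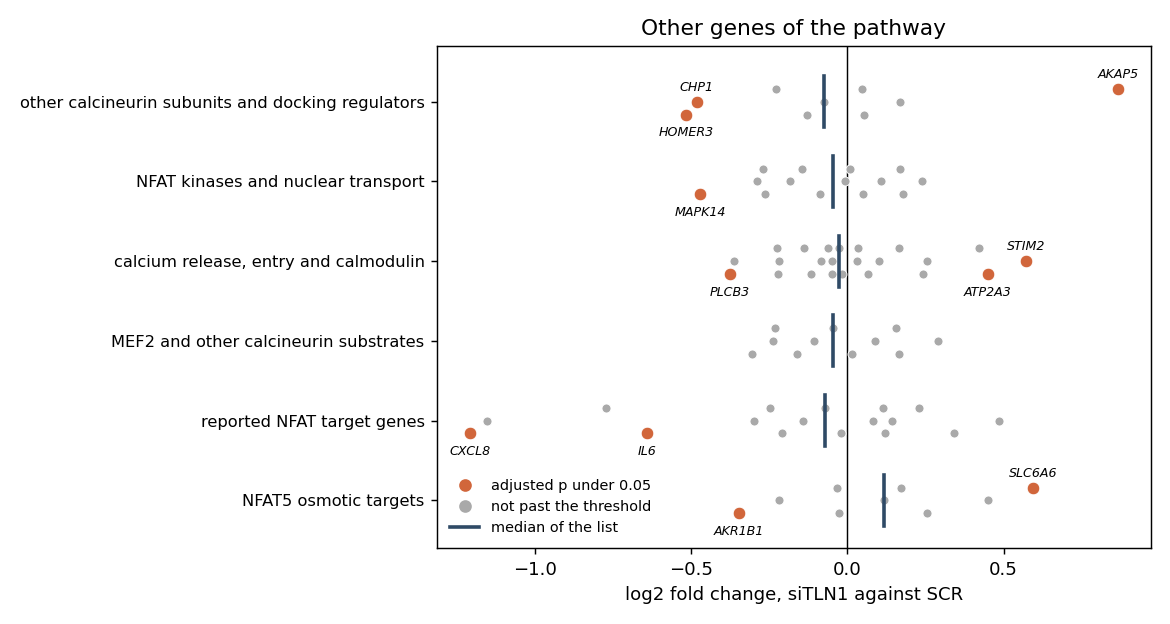
log2 fold change in siTLN1 against SCR of the 83 tested genes in the 6 lists, 1 point per gene, with genes past an adjusted p of 0.05 coloured and named and a bar at each list's median. The 11 named genes fall on both sides of 0, and the medians lie between -0.076 and 0.12.

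The genes whose profile over the 4 libraries lay nearest that of NFATC2 were looked up as a description among 10467 genes with a mean of at least 5 CPM. The distance was Euclidean, between log2 CPM values centred on each gene's mean. The nearest was LGR5, a receptor for R-spondins, at a distance of 0.13, with 10.7 and 9.85 CPM in SCR and 19.9 and 19 CPM in siTLN1. LBH, a transcription cofactor gene, with 22 and 21 CPM in SCR and 45.1 and 48.7 CPM in siTLN1, and EDN1, the endothelin-1 gene, with 59.3 and 59.6 CPM in SCR and 117 and 98.2 CPM in siTLN1, followed at 0.25 each. Over 4 libraries in 2 groups such nearness says little more than that these genes had a like difference between the groups.

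One sequence word was checked because an earlier look at these data had linked it to lower values in siTLN1. The 7-base word GACAACA occurs in a 3′ UTR of at least 1 coding transcript (GENCODE 29) for 9.94% of tested coding genes. Their median log2 fold change was -0.082 against 0.014 for the other genes. As the word was chosen from these same data, the medians are no test of that link. The genes with and without the word were not matched for 3′ UTR length. Of the 10 genes here, NFATC4 (8 of 27 coding transcripts) and NFATC1 (5 of 11) hold the word in a 3′ UTR. NFAT5 holds it in coding sequence only, and NFATC2 holds it in neither region of any of its 6 coding transcripts. The sites are shown with the word in capitals.
NFATC4, 3′ UTR: tggattggggGACAACAgaaccagagt
NFATC1, 3′ UTR: gtcatctcatGACAACAgaagggaggt

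NFATC4 had the lowest log2 fold change of the 10 (-0.13) and NFATC1 one of 0.22. The part of this word in either value was not tested. Among the pathway genes that passed, MAPK14 (-0.47, 2 of 6 coding transcripts) and AKAP5 (0.87, 1 of 2) hold it in a 3′ UTR. STIM2 (0.57, 7 of 10) and SLC6A6 (0.59, 1 of 5), both higher in siTLN1, hold it in coding sequence only. CXCL8, IL6, HOMER3, CHP1, PLCB3, AKR1B1 and ATP2A3 hold it in no 3′ UTR or coding sequence.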

How the data were processed

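The authors deposited raw counts per gene from featureCounts 2.0.0 on the GENCODE 33 annotation of GRCh38, counted by read pair with no strand option, per the file headers. STAR 2.7.9a is named in the submitters' processing notes. The libraries were prepared as stranded mRNA, per the labels' protocols, so reads of overlapping genes on opposite strands were not told apart. Exon length, in a unit other than counts, comes from the same deposited table. The authors also deposited log2 CPM for 16137 genes. On checking, all of its values, sorted within groups, equalled TMM-scaled log2 CPM computed from the counts to within 1e-06.

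Counts were analysed with edgeR 4.0.16 (R 4.3.3): filterByExpr (minimum count 10, total 15), TMM scaling, robust quasi-likelihood fit and test, adjusted over 16137 genes at 0.05. Standard errors and 95% intervals follow from this fit. The replicates of a group differed by more than counting noise (chi-square per degree of freedom 13.7 in SCR and 18.5 in siTLN1), so replicate number rather than depth limits precision except for genes with few counts. An exact permutation test of 2 against 2 libraries cannot go below a p of 0.333, so none was used. The fit was tested on simulated data.

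The numbers in the count column names are not found in the labels, so these columns gave the groups only, and replicate numbers came from the log2 CPM columns. The number of unmapped columns was 0. Gene symbols came from a table of Ensembl gene IDs. Named genes are TLN1, the 10 members, the other genes of their families, from each list up to 3 called genes in order of p, or the 1 of lowest p where none was called, and the 3 nearest to NFATC2. Further list genes are named for their role and were chosen after their values were seen. The members, lists and tests were chosen with earlier results of these data known. Alternatives were RLE scaling, total counts, no filter, a mean of 10 counts, DESeq2 1.42.0, limma 3.58.1 (voom, and trend on the deposited log2 CPM with and without a replicate block) and each library left out.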

Additional observations from a re-analysis of the deposited data

How the results depend on the processing

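NFATC2 was higher in siTLN1 and past the threshold in all 12 alternatives, and its log2 fold change ranged between 0.88 and 1.12 when single libraries were dropped, as did TLN1 (-4.28 to -4.07). NFATC2 led to the choice of the set, and every alternative used these same libraries. Its passing in each is therefore a description and no added support. Fits with 3 libraries leave 1 group with a single library, which is assumed to vary like the other group. Over these 4 fits the number of genes past the threshold ran from 324 (without siTLN1 library a) to 1100, that of listed pathway genes from 3 to 12, and that of members stayed at 1. With all 4 libraries and no block the genes past the threshold numbered 663 (no filter) to 1253 (total counts), against 980, and the listed genes 8 to 13, against 11.

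Changes that missed the threshold turned sign in some fits without 1 library. Their ranges were -0.092 to 0.43 for NFATC1, -0.082 to 0.20 for NFAT5, -0.098 to 0.053 for PPP3CB, -0.014 to 0.17 for RCAN1, -0.0034 to 0.19 for RCAN2, -0.073 to 0.18 for PPP3CC and -0.014 to 0.38 for RCAN3. The cause was not tested.

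With the replicate block, limma-trend on the deposited log2 CPM gave 3645 genes, 33 listed genes and 2 members past the threshold. The second member was PPP3R1 (log2 fold change 0.23, adjusted p 0.00805, in a range of 0.00805 to 0.663 over its alternatives). The block also called DNM1L (-0.30, adjusted p 9.19e-05, in a range up to 0.309). The deviations of equal-numbered replicates correlated at 0.19 across genes (0.53 for those averaging at least 5 CPM), but no label says that equal numbers share a preparation and there are only 2 pairs, so every other fit left them unpaired. Total counts in place of TMM left every member's level within 1 SD of its SCR mean. The TMM factors of the SCR libraries were 0.9987 and 1.002, so these levels could hardly move and the check says little. NFATC1, with 40 to 82 counts per library, is the member that depth limits.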
